A study of Mus musculus with 10 samples.

Results

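Cholesterol synthesis, cholesterol uptake and their control by the SREBP transcription factors are described here through 29 member genes, chosen by name from 30719 genes in the table. They comprise 15 enzymes of synthesis, 5 genes of SREBP control, a lipoprotein receptor and its ubiquitin ligase, 2 thiolases and 5 genes of sterol transfer, esterification and carriage. All 29 were found in the table and all passed the filter on low counts. Cells make cholesterol from acetyl-CoA through mevalonate, squalene and lanosterol, and the genes of this route are driven together by the transcription factors SREBP1 and SREBP2. When membrane sterol is low, SCAP escorts the SREBPs from the endoplasmic reticulum to the Golgi for cleavage, and when it is high, the INSIG proteins hold SCAP and SREBP back. In the testis, cholesterol serves the membranes of Sertoli and germ cells and is the precursor of androgens in Leydig cells, and sterol intermediates past lanosterol are known to accumulate there.

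RNA of whole testes was sequenced from FXR-/- mice and from wild-type (WT) mice at postnatal day 10, with 5 libraries of each genotype, which the labels do not tie to individual animals. FXR-/- mice lack FXRα, the bile acid receptor encoded by Nr1h4. Both genotypes were on a mixed 129sv and C57Bl6 background, the labels name no treatment, and they say neither how the null allele was made nor whether the mice were littermates. The FXR-/- libraries are numbered 8, 9, 10, 11 and 12 and the WT libraries 3, 4, 5, 6 and 9, and values per library are given in that order. Levels are CPM, a gene's counts scaled to a common library size after trimmed-mean (TMM) normalization. A gene was called changed at an adjusted p under 0.05 in edgeR's quasi-likelihood test, and log2 fold changes are FXR-/- over WT. Nr1h4 itself lay near the detection limit, with 8 to 13 counts in FXR-/- libraries and 13 to 26 in WT libraries (log2 fold change -0.84, edgeR adjusted p = 0.0347). Whether the counted stretch lies in the deleted part of the gene is not given in the sources used here, so this checks the genotype labels only weakly.

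The libraries held 33037427 to 39655170 counts in FXR-/- and 32330029 to 35006180 in WT, and the members held 288 to 13891 counts in a library. Cell markers were not level between the genotypes. The summed level of 16 Sertoli cell markers was 4336 to 6220 CPM in FXR-/- libraries and 6255 to 7549 CPM in WT libraries, and 11 of the 16 were called lower and 1 higher. Of 12 adipocyte markers, 10 were called higher, with sums of 224 to 1389.5 CPM in FXR-/- and 62.5 to 231 CPM in WT libraries, the highest in FXR-/- libraries 9 and 10. Of 9 tested duct markers, 9 were called higher, with sums of 122 to 188 CPM in FXR-/- and 64.7 to 84.8 CPM in WT libraries. The 14 germ cell markers summed to 1807 to 2334 CPM in FXR-/- and 1388 to 2072 CPM in WT libraries, with 3 called higher. Sums of peritubular and stromal, endothelial, skeletal muscle and erythroid markers overlapped between the genotypes. Within these lists the muscle gene Ckm was called lower without overlap, from a very low level (means of 0.134 CPM in FXR-/- and 0.525 CPM in WT). The globin gene Hba-a1 was called higher at a log2 fold change of 1.32, while Hba-a2 stood at -1.70 and was not called. The sum of 11 Leydig markers was 695 to 1071 CPM in FXR-/- and 885 to 1202 CPM in WT libraries, with 3 called lower (Hsd3b1, Nr5a1 and Scarb1, each without overlap) and Cyp11b1 called higher. Cyp11b1 was at a low level, with means of 1.56 CPM in FXR-/- and 0.357 CPM in WT. The other 7 Leydig markers were not called, and of all 11, 5 were fitted above 0 and 6 below. The sum of 11 macrophage markers was 122 to 174 CPM in FXR-/- and 139 to 155 CPM in WT libraries, and of its genes Ptprc did not overlap, at a log2 fold change of 0.46, without being called. Mitochondrial genes took 1.96% to 2.36% of counts in FXR-/- and 1.81% to 1.998% in WT libraries, and 4 of 5 FXR-/- libraries lay above all WT libraries. In whole tissue, fewer cells of a type and less RNA per cell cannot be told apart, and the part of these markers and of the mitochondrial share in the member values was not tested.

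Of the 29 members, 7 changed in FXR-/- testis, all by less than 1.5-fold, and 22 were not called. Among the enzymes Hmgcs1, Ebp and Dhcr7 fell, by 1.26-fold to 1.41-fold. The genes of both SREBPs and the INSIG gene Insig2 fell by 1.13-fold to 1.24-fold, while the cytosolic thiolase gene Acat2 was the 1 member to rise, by 1.34-fold. In all, 6 of 29 members (20.7%) were called lower and 1 (3.45%) higher, against 7.71% and 6.17% of 18559 tested genes, and 7 of 29 (24.1%) were called in either direction, against a background of 13.9%. With library totals in place of TMM scaling, 61.5% of all calls were higher, against 44.5% here, and 2 members were called higher and 4 lower. The median log2 fold change was -0.18 over the members and 0.01 over all genes tested. In 3 members (10.3%) the genotypes did not overlap, which is near the 11.6% of all genes tested. The count of members called lower depended on single libraries, since it was 3 without any 1 of FXR-/- libraries 11 and 12 and WT libraries 4 and 6, and 8 without FXR-/- library 10. Ebp, Dhcr7, Insig2 and Acat2 stayed called without any single library.

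**Figure D1:**
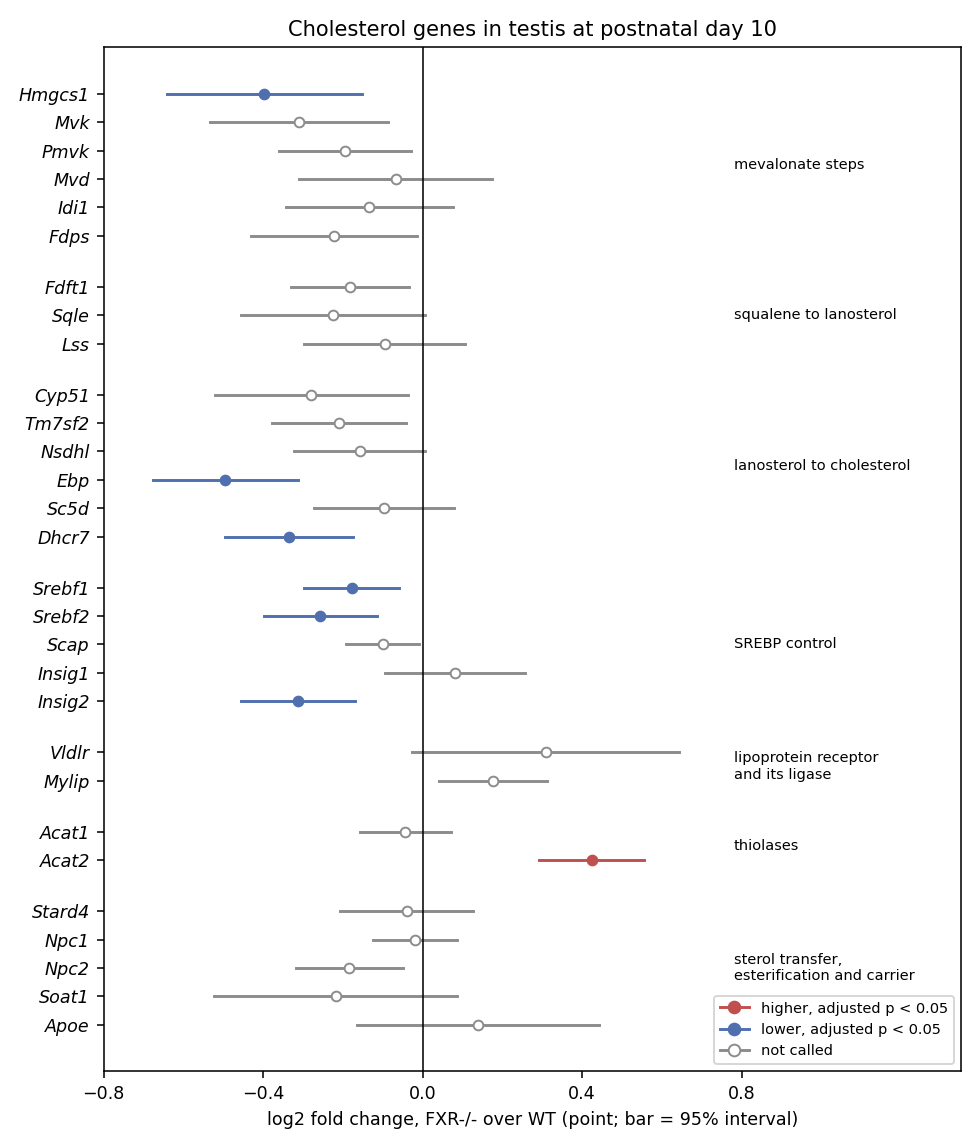
Log2 fold change (x axis, FXR-/- over WT) of the 29 members by role, as point and 95% interval from edgeR, 5 libraries per genotype. All 15 synthesis enzymes lie below 0, with Ebp lowest at -0.49, and Acat2 stands highest at 0.42.

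The stretches before the starts of Hmgcs1, Ebp, Srebf2 and Acat2 are shown because these are called members with a single RefSeq start, from both directions of change. They come from RefSeq promoter windows on GRCm38.p6, read 5′ to 3′ on the gene's strand, and end before the gene body in both RefSeq and GENCODE. Capitals mark a sterol regulatory element (SRE, searched as TCACNCCAC), a CCAAT box (CCAAT) or a GC box (GGGCGG), on either strand. These are textbook sites of SREBPs, NF-Y and Sp1, and the 3 motifs were searched independently, so that matches may overlap.
Hmgcs1 (chr13:119690201-119690350, plus strand): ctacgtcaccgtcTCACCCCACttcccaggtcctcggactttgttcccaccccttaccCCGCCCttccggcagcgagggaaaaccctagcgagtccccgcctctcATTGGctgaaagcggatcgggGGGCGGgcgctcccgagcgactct
Ebp (chrX:8193513-8193662, minus strand): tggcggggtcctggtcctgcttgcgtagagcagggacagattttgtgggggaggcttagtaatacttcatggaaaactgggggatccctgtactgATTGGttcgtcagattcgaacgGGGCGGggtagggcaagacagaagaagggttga
Srebf2 (chr15:82147119-82147180, plus strand): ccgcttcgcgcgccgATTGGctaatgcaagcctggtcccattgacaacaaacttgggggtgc
Acat2 (chr17:12960748-12960875, minus strand): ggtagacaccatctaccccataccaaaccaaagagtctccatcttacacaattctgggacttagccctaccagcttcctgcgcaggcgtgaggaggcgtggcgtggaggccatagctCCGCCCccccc

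The Hmgcs1 stretch holds 1 SRE, 1 CCAAT box and 2 GC boxes, that of Ebp 1 CCAAT box and 1 GC box, that of Srebf2 1 CCAAT box, and that of Acat2 1 GC box. These stretches are 150, 150, 62 and 128 bases long, so their counts are not comparable. In the full windows of 300 bases, Hmgcs1 has 4 CCAAT and 3 GC boxes, and Ebp 2 and 1. Srebf2 has 1 CCAAT and 5 GC boxes there, and Acat2 0 and 1. RefSeq windows of 300 bases, from 250 before to 50 after a start, were matched by symbol for 23 of 29 members. The SRE letters were found in 1 of these 23 (4.35%), against 1.44% of 27025 genes with a window. A CCAAT box was found in 20 of 23 (87%), against 41.1% of all genes, and a GC box in 21 of 23 (91.3%), against 38.2%. All genes here means any gene with a window, whether expressed in testis or not. Among 53 other sterol and lipid genes with a window, from the 3 lists described below, the SRE letters were found in 5.66%. A CCAAT box was found in 52.8% of these 53 and a GC box in 64.2%. The 3 members with no CCAAT box in any window were Scap, Acat2 and Apoe, and the 2 with no GC box were Pmvk and Apoe. A match of letters is a description and not a binding site, and no match says only that these letters are not in the window.

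Along the mevalonate steps, the first gene carried the call. Hmgcs1 (ENSMUSG00000093930, GRCm38 chromosome 13, 119690379 to 119708260, plus strand) encodes the cytosolic HMG-CoA synthase. It had 223, 222, 305, 241 and 234 CPM in FXR-/- libraries, against 269, 399.7, 291, 345 and 308 CPM in WT libraries. FXR-/- library 10 lay above WT libraries 3 and 5, and the other FXR-/- libraries lay below all WT libraries. The means were 245 ± 34.5 CPM in FXR-/- and 323 ± 51.2 CPM in WT (SD, n = 5 each), with a log2 fold change of -0.40 (SE 0.112, edgeR adjusted p = 0.0365). The call was lost without any 1 of FXR-/- libraries 8, 9, 11 and 12 and WT libraries 4, 6 and 9, with an adjusted p of up to 0.083. Over all 10 removals the log2 fold change ran from -0.49 to -0.31. The exons of Hmgcs1 overlap those of the antisense gene Gm48342 over 12.1% of their length, so its count is less certain.

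None of the other 5 mevalonate genes was called, and all 5 fitted changes lay below 0. Mvk, the mevalonate kinase gene, had 20.2, 16.1, 17.9, 15.4 and 16.3 CPM in FXR-/- and 18.5, 23.9, 18.2, 24.4 and 21.3 CPM in WT libraries, with FXR-/- library 8 inside the WT range (log2 fold change -0.31, SE 0.102, edgeR adjusted p = 0.0654). Pmvk, the next kinase of the route, averaged 11.7 ± 0.898 CPM in FXR-/- and 13.4 ± 1.01 CPM in WT testis (SD, n = 5 each). Its adjusted p was 0.109 in the edgeR fit. Fdps, which makes farnesyl diphosphate, averaged 51.2 ± 5.69 CPM in FXR-/- and 59.7 ± 7.88 CPM in WT testis (SD, n = 5 each; edgeR adjusted p = 0.142). The decarboxylase gene Mvd and the isomerase gene Idi1 had intervals that spanned 0, from -0.31 to 0.17 and from -0.34 to 0.08 on the log2 scale. Of the transcript windows of 50 bases, 26.2% of those of Fdps and 25.3% of those of Idi1 also occur in other annotated genes or pseudogenes, so their counts are less certain.

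Between squalene and lanosterol no gene was called. Fdft1, the squalene synthase gene, averaged 59.7 ± 5.39 CPM in FXR-/- and 67.7 ± 4.89 CPM in WT testis (SD, n = 5 each; edgeR adjusted p = 0.0935). Its exons overlap those of Ctsb on the opposite strand over 18.3% of their length, and the use of strand in counting is not given in the sources used here. Sqle, squalene epoxidase, a rate-controlling step after mevalonate, had 87.2, 64.3, 92.2, 75.8 and 81.3 CPM in FXR-/- and 78.7, 109, 85.7, 104 and 91.1 CPM in WT libraries. FXR-/- library 9 was the lowest of all 10 libraries, FXR-/- library 11 also lay below the WT range and FXR-/- libraries 8, 10 and 12 inside it (log2 fold change -0.23, SE 0.106, edgeR adjusted p = 0.176). Lss, the lanosterol synthase gene, had an interval from -0.30 to 0.11.

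The late steps held the largest fall of any member. Ebp (ENSMUSG00000031168, chromosome X, 8185329 to 8193512, minus strand) encodes the emopamil binding protein, the isomerase that moves a double bond within the sterol ring. It had 14.2, 17.3, 20.4, 16.5 and 16.1 CPM in FXR-/- libraries and 24.1, 24.8, 22.6, 23.6 and 24.0 CPM in WT libraries, with no overlap. The means were 16.9 ± 2.26 CPM in FXR-/- and 23.8 ± 0.805 CPM in WT (SD, n = 5 each; log2 fold change -0.49, SE 0.0835, edgeR adjusted p = 0.00362). FXR-/- library 8, lowest in Ebp, was also the lowest in the sum of Sertoli markers, and without it Ebp was still called. The other FXR-/- libraries also lay below all WT libraries in that sum, so the removal leaves this difference in place. The part of the Sertoli markers in the Ebp level was not tested.

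Dhcr7 (ENSMUSG00000058454, chromosome 7, 143823145 to 143848410, plus strand), the reductase of the last step to cholesterol in one branch of the route, had 70.5, 67.7, 73.6, 64.8 and 69.0 CPM in FXR-/- and 70.6, 88.8, 87.8, 96.2 and 92.6 CPM in WT libraries. WT library 3 lay among the FXR-/- libraries and the other 4 WT libraries lay above them all. Its means were 69.1 ± 3.24 CPM in FXR-/- and 87.2 ± 9.86 CPM in WT (SD, n = 5 each; log2 fold change -0.34, SE 0.0733, edgeR adjusted p = 0.0122). Cyp51, the lanosterol demethylase gene, averaged 59.8 ± 7.91 CPM in FXR-/- and 72.5 ± 11.1 CPM in WT testis and was not called (SD, n = 5 each; edgeR adjusted p = 0.114). Tm7sf2, a sterol reductase gene, and Nsdhl, a sterol dehydrogenase gene, were not called either, at log2 fold changes of -0.21 and -0.16 (edgeR adjusted p = 0.0904 and 0.185). Sc5d, the desaturase before Dhcr7, differed least of these, at -0.10 with an interval from -0.27 to 0.08. The exons of Tm7sf2 overlap those of Vps51 on the same strand over 12.1% of their length. Vps51 had 15928 reads over all libraries and Tm7sf2 4318, so the Tm7sf2 count is less certain.

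**Figure D2:**
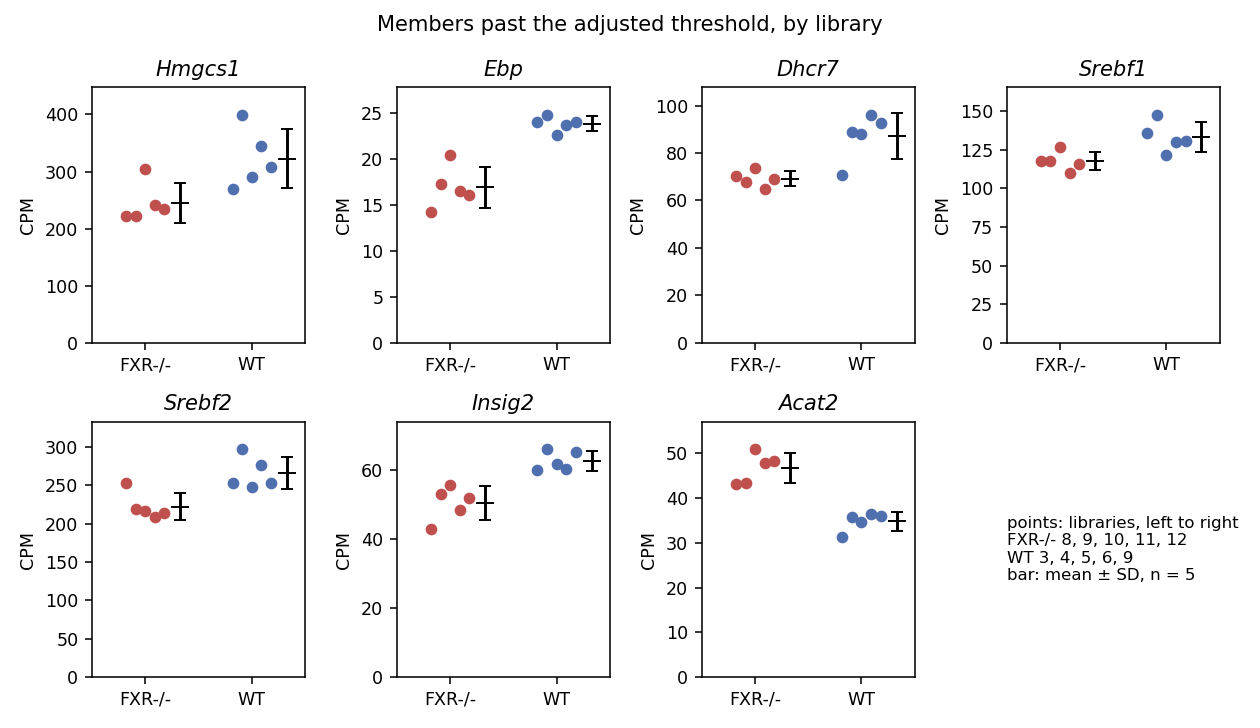
CPM (y axis, from 0) of the 7 called members in each library, FXR-/- left and WT right, with mean ± SD (n = 5). The genotypes do not overlap in Ebp, Insig2 and Acat2.

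Averaged over the 15 enzymes, the genotypes overlapped. The mean log2 CPM was 5.39, 5.25, 5.47, 5.26 and 5.29 in FXR-/- libraries, against 5.37, 5.71, 5.46, 5.66 and 5.59 in WT libraries. The averages were 5.33 ± 0.0961 in FXR-/- and 5.56 ± 0.14 in WT (SD, n = 5 each), a difference of -0.22, and WT libraries 3 and 5 lay inside the FXR-/- range. WT library 4 was the highest WT library in 10 of 15 enzymes and WT library 3 the lowest in 11. FXR-/- library 10 was the highest FXR-/- library in 10 enzymes and FXR-/- library 9 the lowest in 7. All 15 fitted changes were below 0, with a median of -0.21, against 46.7% of all genes tested below 0. The difference ran from -0.27 without WT library 3 to -0.19 without WT library 4. FXR-/- library 10 was the highest FXR-/- library in both the enzymes and the sum of Sertoli markers (6220 CPM), and FXR-/- library 8, lowest in Sertoli markers at 4336 CPM, was second in the enzymes. WT library 4 was highest in the enzymes among WT libraries with 7459 CPM of Sertoli markers, and WT library 3 lowest with 7404 CPM. The part of the Sertoli markers in the enzyme levels was not tested. FXR-/- libraries 9 and 10, both high in adipocyte markers, were the lowest and the highest FXR-/- libraries in the enzymes, and without both the difference was -0.25.

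**Figure D3:**
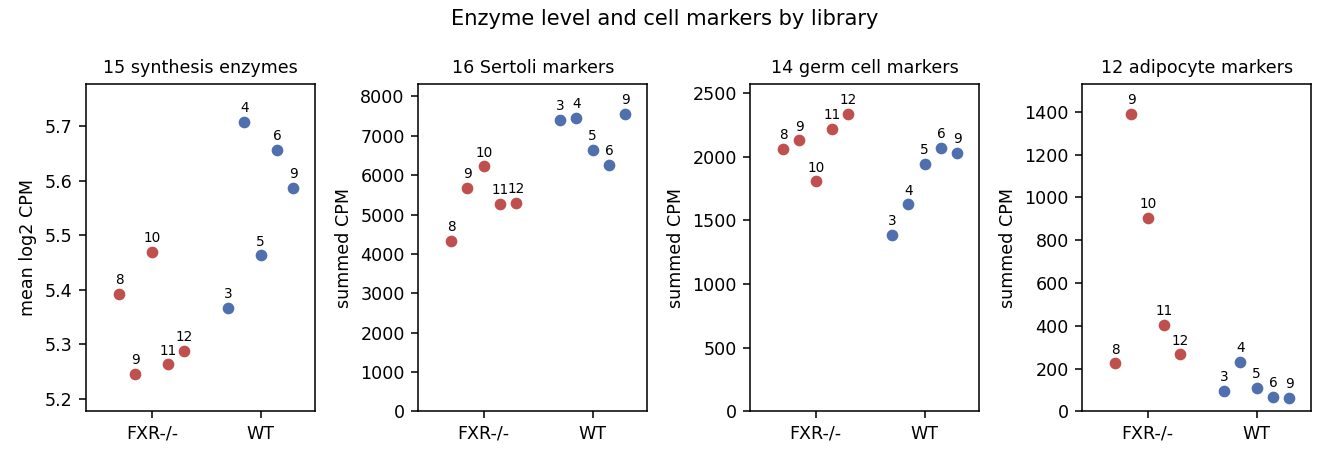
Mean log2 CPM of the 15 synthesis enzymes and summed CPM of Sertoli, germ cell and adipocyte markers (y axes) in each library, FXR-/- left and WT right, numbered by library. The enzyme means overlap between genotypes at WT libraries 3 and 5. The Sertoli sums do not overlap, but FXR-/- library 10 (6220 CPM) and WT library 6 (6255 CPM) nearly meet. The marker Clu alone holds 1843 and 2101 CPM of these 2 sums.

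Of the 5 control genes, Srebf1, Srebf2 and Insig2 fell, and Scap and Insig1 were not called. Srebf2 (ENSMUSG00000022463, chromosome 15, 82147181 to 82205379, plus strand) encodes SREBP2, the main activator of cholesterol synthesis. It had 253, 219, 216, 208 and 213 CPM in FXR-/- libraries and 253, 297, 247, 276 and 253 CPM in WT libraries. FXR-/- library 8 lay inside the WT range and the other 4 below it. The means were 222 ± 17.97 CPM in FXR-/- and 265 ± 20.8 CPM in WT (SD, n = 5 each; log2 fold change -0.26, SE 0.0647, edgeR adjusted p = 0.0234). Its call was lost without any 1 of FXR-/- libraries 11 and 12 and WT libraries 4 and 6 (edgeR adjusted p up to 0.0646), without FXR-/- libraries 9 and 10 together, and with library totals in place of TMM.

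Srebf1 (ENSMUSG00000020538, chromosome 11, 60199089 to 60222581, minus strand) encodes SREBP1, which drives fatty acid synthesis more than cholesterol synthesis. It had 118, 118, 127, 110.2 and 116 CPM in FXR-/- libraries against 136, 148, 121, 130.0 and 130.5 CPM in WT libraries, with FXR-/- library 10 above WT library 5. The means were 118 ± 5.88 CPM in FXR-/- and 133 ± 9.69 CPM in WT (SD, n = 5 each; log2 fold change -0.18, SE 0.0545, edgeR adjusted p = 0.0489). This call stood at the threshold. Only 5 of 17 alternatives kept it, and removing any library other than FXR-/- 10 or WT 5 ended it (adjusted p up to 0.126).

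Insig2 (ENSMUSG00000003721, chromosome 1, 121304353 to 121332589, minus strand), one of the 2 INSIG genes and known in mouse liver as a target of FXR, had 42.9, 53.2, 55.7, 48.4 and 52.0 CPM in FXR-/- libraries and 60.0, 66.1, 61.8, 60.3 and 65.2 CPM in WT libraries. All FXR-/- libraries lay below all WT libraries. The means were 50.4 ± 4.98 CPM in FXR-/- and 62.7 ± 2.81 CPM in WT (SD, n = 5 each; log2 fold change -0.31, SE 0.0656, edgeR adjusted p = 0.00988). Insig1, the other INSIG gene and itself a target of SREBPs, had 119, 105, 117, 104 and 107 CPM in FXR-/- libraries and 84.4, 116, 98.1, 114 and 109 CPM in WT libraries. FXR-/- libraries 8 and 10 lay just above the WT range and the other 3 inside it, and its log2 fold change was 0.08, with an interval from -0.10 to 0.26 (edgeR adjusted p = 0.542). Whether the 2 INSIG genes differed in their change was not tested. Scap, the escort of the SREBPs, averaged 161 ± 6.15 CPM in FXR-/- and 172 ± 7.67 CPM in WT testis and was not called (SD, n = 5 each; edgeR adjusted p = 0.131).

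**Figure D4:**
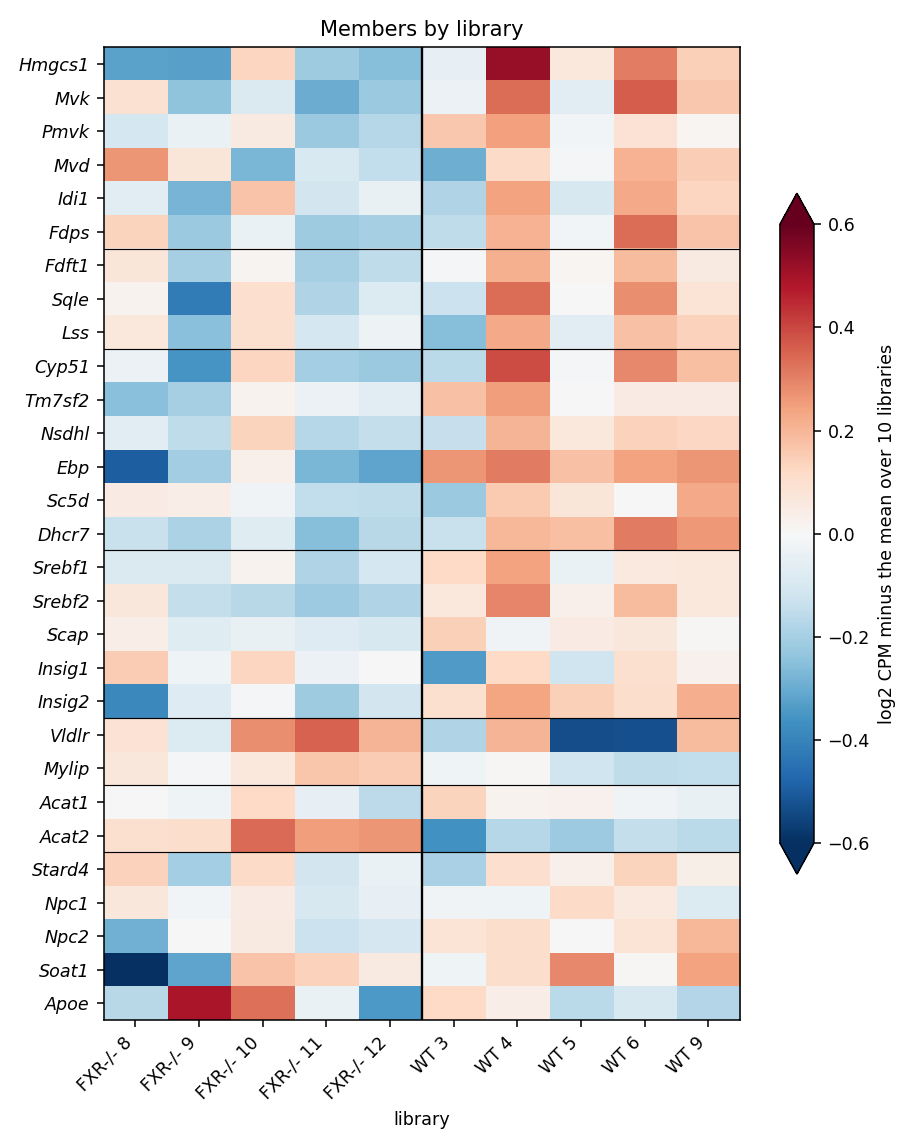
Log2 CPM of each member (rows, by role) in each library (columns, FXR-/- left of the line and WT right) minus the gene's mean over 10 libraries, with colours capped at 0.6 either way. WT libraries 4 and 6 are high and FXR-/- libraries 9, 11 and 12 low in most enzymes, and Acat2 runs the other way.

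The lipoprotein receptor gene and its ligase were not called. Vldlr, the receptor for very low density lipoprotein, had 13.8, 12.3, 15.8, 16.7 and 15.1 CPM in FXR-/- and 11.5, 15.02, 9.03, 9.06 and 14.9 CPM in WT libraries. WT libraries 5 and 6 were the lowest, WT libraries 4 and 9 lay inside the FXR-/- range, and the log2 fold change of 0.31 had an interval from -0.03 to 0.64 (SE 0.153, edgeR adjusted p = 0.2). Mylip, the ligase that marks lipoprotein receptors for breakdown, averaged 15.04 ± 0.752 CPM in FXR-/- and 13.3 ± 0.688 CPM in WT testis (SD, n = 5 each; edgeR adjusted p = 0.0787), and it was called higher with library totals in place of TMM (edgeR adjusted p = 0.0429).

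Acat2 (ENSMUSG00000023832, chromosome 17, 12942890 to 12960747, minus strand), the cytosolic thiolase that joins acetyl-CoA units at the entry of the pathway, was higher in FXR-/- testis. It had 43.0, 43.3, 50.8, 47.8 and 48.3 CPM in FXR-/- libraries and 31.3, 35.7, 34.6, 36.4 and 35.9 CPM in WT libraries, without overlap. The means were 46.6 ± 3.41 CPM in FXR-/- and 34.8 ± 2.06 CPM in WT (SD, n = 5 each; log2 fold change 0.42, SE 0.0607, edgeR adjusted p = 0.00132). Acat2 kept its call in all 17 alternatives, with adjusted p up to 0.00548. Its count is uncertain in 1 respect, since 39.1% of its transcript windows of 50 bases also occur in the neighbouring copy Acat3. Acat3 was read at 2.59, 6.58, 6.45, 6.64 and 5.57 CPM in FXR-/- and 5.84, 5.73, 5.77, 5.36 and 6.30 CPM in WT libraries and was not called (log2 fold change -0.06, edgeR adjusted p = 0.886). Acat1, the mitochondrial thiolase gene, averaged 124 ± 8.48 CPM in FXR-/- and 127 ± 6.12 CPM in WT testis, with an interval of the log2 fold change from -0.16 to 0.07 (SD, n = 5 each).

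No gene of sterol transfer, esterification or carriage was called. Npc1 and Npc2, which move cholesterol out of late endosomes and lysosomes, had log2 fold changes of -0.02 and -0.18, with intervals from -0.12 to 0.09 and from -0.32 to -0.05 (edgeR adjusted p = 0.831 and 0.0675). Stard4, a soluble sterol carrier, averaged 59.7 ± 6.05 CPM in FXR-/- and 61.4 ± 5.22 CPM in WT testis (SD, n = 5 each), with an interval from -0.21 to 0.13. Soat1, which esterifies cholesterol for storage, had 104, 132, 185, 181 and 171 CPM in FXR-/- and 162, 177, 201, 165 and 194 CPM in WT libraries. FXR-/- libraries 8 and 9 were low and the other 3 lay within the WT range (edgeR adjusted p = 0.325). Apoe, an apolipoprotein made by macrophages and adipocytes among other cells, had 99.3, 156, 140.1, 108 and 87.6 CPM in FXR-/- and 121, 115, 99.4, 104 and 98.5 CPM in WT libraries. Its high values were in FXR-/- libraries 9 and 10, the same that were high in adipocyte markers, and its fitted change of 0.14 turned to -0.13 without these 2 libraries (edgeR adjusted p = 0.548 and 0.347).

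Per kilobase of annotated exon, the members spanned 1.47 to 55.4 CPM in FXR-/- and 1.18 to 70.2 CPM in WT testis. Apoe and Hmgcs1 stood at the top, at 55.4 and 53.3 CPM per kilobase in FXR-/- and 50.3 and 70.2 in WT, so that their order differed between the genotypes. Srebf2 was above Srebf1 per kilobase, at 30.9 against 20.9 in FXR-/- and 36.9 against 23.6 in WT, and Insig1 above Insig2, at 35.6 against 14.5 in FXR-/- and 33.7 against 18.04 in WT. Vldlr and the sterol reductase Tm7sf2 were the lowest. Acat2 took rank 9 of 29 in FXR-/- and rank 18 in WT testis. Exon length was the union over all annotated isoforms, which lowers the value of genes with long rare isoforms.

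Other genes of sterol and lipid metabolism were counted in 3 lists of 78 genes, of which 74 were tested. Of these, 15 (20.3%) were called lower and 4 (5.41%) higher, with a median log2 fold change of -0.10, against 7.71% lower, 6.17% higher and a median of 0.01 over all genes tested. In the list of other cholesterol synthesis and uptake genes, 6 of 23 tested (26.1%) were called lower and none higher. Lrp1, a large receptor for Apoe-bearing particles, averaged 513 ± 39.1 CPM in FXR-/- and 606 ± 30.6 CPM in WT testis, and Mbtps1, the protease that makes the first cut in SREBPs, 308 ± 17.6 CPM in FXR-/- and 349 ± 5.39 CPM in WT (SD, n = 5 each; edgeR adjusted p = 0.0173 and 0.0181). Neither gene overlapped between the genotypes, and both lost their call without FXR-/- library 11. Pgrmc1, a haem-binding partner of sterol-synthesis P450 enzymes, fell 1.15-fold (edgeR adjusted p = 0.0282), a call lost without any 1 of 5 libraries (FXR-/- 8, 9, 11 and 12 and WT 4).

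Of 30 tested trafficking, efflux and liver X receptor genes, 3 were called lower and 1 higher. These 4 are 13.3% of the list, near the 13.9% of all genes tested that were called. Scarb1, the receptor for high density lipoprotein, fell 1.38-fold, with 129, 190.3, 204, 164 and 171 CPM in FXR-/- and 213, 227, 257, 216 and 270.1 CPM in WT libraries (edgeR adjusted p = 0.019), and the call was lost without FXR-/- library 11. Leydig cells are known to take up cholesterol through this receptor. Osbpl10, an oxysterol-binding protein gene, and Scarb2, a lysosomal membrane protein gene, fell by 0.47 and 0.27 on the log2 scale (edgeR adjusted p = 0.0162 and 0.0218), and the Scarb2 call was lost without FXR-/- library 11 or 12. Apoc1, an apolipoprotein gene near Apoe, rose 2.41-fold from a low level and was highest in FXR-/- library 9 (6.47 CPM, other FXR-/- libraries 1.46 to 3.11 CPM; edgeR adjusted p = 0.0392). It lost that call in 9 of 17 alternatives, among them the removal of FXR-/- libraries 9 and 10.

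In the list of SREBP1 targets, which holds enzymes of fatty acid synthesis and other lipid genes, calls went in both directions. Of 21 tested, 6 (28.6%) were called lower and 3 (14.3%) higher, against 7.71% and 6.17% of all genes tested. Fasn, fatty acid synthase, had 645, 756, 726, 667 and 669.5 CPM in FXR-/- libraries against 833, 847, 784, 832 and 871 CPM in WT libraries, with no overlap (log2 fold change -0.27, SE 0.0499, edgeR adjusted p = 0.00601). Acly, which supplies cytosolic acetyl-CoA, fell 1.14-fold, Elovl5, an elongase, 1.22-fold, and Pcyt1a, the regulated enzyme of phosphatidylcholine synthesis, 1.37-fold (edgeR adjusted p = 0.00822, 0.00561 and 0.000216). Pnpla3, Thrsp and Lpin1 rose, and are named with their values known. Pnpla3 had 3.92, 24.4, 17.2, 5.83 and 4.24 CPM in FXR-/- and 1.78, 4.23, 3.07, 1.29 and 1.60 CPM in WT libraries, so that FXR-/- libraries 9 and 10 were again the high ones, and Thrsp was likewise highest there (16.9 and 6.38 CPM). Both lost their calls without these 2 libraries. Lpin1 kept its call without them, but lost it without any 1 of 9 libraries, all but FXR-/- library 10 (edgeR adjusted p up to 0.0725).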

How the data were processed

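RNA-seq was analysed from 10 mouse testis libraries. The authors deposited raw counts per Ensembl gene, with 1 column per library. FastQC 0.10.1, CASAVA, Bowtie, TopHat2 2.0.10, Bowtie2 2.1.0 and the build mm10 are named in the submitters' processing notes. For the read counter, its annotation, strand use and treatment of multiply mapped reads, nothing is stated in the labels. Normalized columns of the same table were not used, because their decimal marks were lost.

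Genotypes were compared in R 4.3.3 with edgeR 4.0.16: filterByExpr kept 18559 of 30719 genes, TMM factors scaled the libraries, and the two-sided quasi-likelihood test was adjusted by Benjamini-Hochberg over all genes tested. Intervals cover 95%. Mean log2 CPM used a prior count of 2. Alternatives used other scalings, no filter, DESeq2 1.42.0, limma 3.58.1 (voom) and fewer libraries. The procedure was also run on simulated counts with planted changes. The share recovered is not reported here, so this run does not show how well changes as small as those of the members are found. Exon lengths came from GENCODE on GRCm38 and promoter windows from RefSeq on GRCm38.p6.

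All 29 members are named. From each context list every called gene was to be named, or the 4 with the smallest p, and some genes picked this way are not reported here. Members and lists were chosen with earlier results of these data known. Each library was treated as 1 replicate. Library pairs of 1 genotype differed by more than counting noise, which does not show that they come from separate animals. FXR-/- libraries 11 and 12 were the closest pair, at a mean chi-square per gene of 4.36, where counting noise alone gives 1. The other FXR-/- pairs had 12.6 to 24.0, and the WT pairs 5.13 (WT 5 and 6) to 26.2 (WT 3 and 6). The labels name no litter or batch, and p-values measure the spread between these libraries, which may in part be technical.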

Additional observations from a re-analysis of the deposited data

Results flagged for a closer look

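Among 60 groups of 5 libraries examined (the 29 members and the mean of the 15 enzymes, in each genotype), 2 held a library far from the other 4, where chance gives about 1 in 20. Hmgcs1 in FXR-/- library 10 had a log2 CPM of 8.25, against 7.80 to 7.91 in the other FXR-/- libraries. Without that library Hmgcs1 was called lower at a log2 fold change of -0.49 (edgeR adjusted p = 0.00902). Srebf2 in FXR-/- library 8 had a log2 CPM of 7.99, against 7.70 to 7.78 in the other FXR-/- libraries. Without it Srebf2 was called lower at -0.31 (edgeR adjusted p = 0.00588). Each removed library was the highest FXR-/- library in its gene, so a larger fall follows from the removal itself. Both calls were lost when some other single libraries were left out, as given above. Library 10 was high in adipocyte markers and highest in 10 of 15 enzymes among FXR-/- libraries, and library 8 was lowest in Sertoli markers. The part of these in both values was not tested.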

How the results depend on the processing

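Over 17 alternatives, Acat2, Dhcr7, Ebp and Insig2 were called in the same direction in each, and all 15 synthesis enzymes were fitted below 0 in each. With library totals alone, 2 members were called higher, Mylip beside Acat2. With the DESeq2 Wald test, 29 other pathway genes were called, against 19 with edgeR. Leaving out 1 library at a time gave 3 to 8 members called lower, 9 to 25 other pathway genes called and 1427 to 2867 of all genes called, and the cause was not tested. The lowest counts of all genes and of other pathway genes came without FXR-/- library 11 and the highest without FXR-/- library 10. No paired analysis was possible, because the labels name no litter and do not say that a library number marks a pair. The member with the fewest counts, Vldlr, had at least 288 in every library.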
